A study of Mus musculus with 8 samples.

Results

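The 10 genes described here stand at the entry of the T cell pathway and were followed by RNA sequencing of cultured mouse bone marrow progenitors with and without Pcgf1. They were the Notch receptor gene Notch1, its direct targets Hes1, Dtx1 and Nrarp, the T lineage transcription factor genes Gata3, Tcf7 and Bcl11b, and the T cell genes Cd3e, Ptcra and Il2ra. The 10 genes were chosen by symbol out of 23284 symbols listed for each library, and all 10 were present in both tables. Expression was given as CPM, the number of reads on a gene scaled to a fixed library total, and each gene's level was the sum over its listed exon rows. The study compared Pcgf1-KO with control progenitors in 2 kinds of cells, IdHPCs and LMPPs, with 2 libraries per genotype and kind of cell and 8 libraries in all.

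PCGF1 is the subunit that defines a variant form of polycomb repressive complex 1, which is recruited to CpG-rich promoters through KDM2B and marks histone H2A with ubiquitin. IdHPCs are hematopoietic progenitors kept in culture by human Id3, an inhibitor of E proteins that holds back lineage commitment, and LMPPs are lymphoid-primed multipotent progenitors. All samples were labelled as bone marrow of the B6CBAF1/J strain with the genotype Pcgf1 fl/fl for control and Pcgf1 -/- for Pcgf1-KO. IdHPCs had been made by transducing Lin- Sca-1+ c-Kit+ (LSK) cells with Id3 and were kept on TSt-4 stromal cells with SCF, Flt3 ligand and IL7, and the labels give the same stromal culture for LMPPs. Per the methods of the study, LMPP controls were Pcgf1 fl/fl and LMPP Pcgf1-KO cells were ERT2-Cre:Pcgf1 fl/fl, both cultured with 4-hydroxytamoxifen (4-OHT), which activates the Cre. By these methods the LMPP groups would differ in the Cre transgene as well as in Pcgf1. The Pcgf1 reads of the LMPP libraries did not follow the labels, as given below. Pcgf1-KO IdHPCs were made with 4-OHT, and ethanol is given as the control treatment of IdHPCs in another experiment. The deletion spans exons 2 to 7 of Pcgf1.

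Notch signalling starts when a Delta-like or Jagged ligand on a neighbouring cell binds a Notch receptor, which is then cut by an ADAM protease and by γ-secretase. The freed intracellular domain enters the nucleus, joins the DNA-binding protein RBPJ and a Mastermind coactivator, and switches on genes such as Hes1, Dtx1 and Nrarp. In the thymus this signal directs progenitors to the T lineage, first through Tcf7 and Gata3 and later through Bcl11b, while Il2ra, Ptcra and Cd3e come on as the cells pass through the pro-T stages.

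The 4 IdHPC libraries held 21252454 to 34898845 reads over all listed rows and the 4 LMPP libraries 13209167 to 17379180, of which 15722759 to 25302206 and 9618849 to 12578784 lay on distinct rows. Over the totals of all listed rows, 1 read was worth 0.0287 to 0.0471 CPM in IdHPCs and 0.0575 to 0.0757 CPM in LMPPs. Progenitor genes were present in all 8 libraries. Flt3, the receptor for Flt3 ligand, was at 425 to 631 CPM in IdHPCs and 366 to 440 CPM in LMPPs, and Cd34 at 105 to 247 and 721 to 800 CPM. Il7r, the interleukin-7 receptor chain, was at 47.0 to 83.8 CPM in IdHPCs and only 0.681 to 3.47 CPM in LMPPs, and Ly6a, which encodes the Sca-1 used to sort LSK cells, was at 34.4 to 76.7 and 2.80 to 14.7 CPM. In IdHPCs, Pcgf1 was at 8.14 and 7.22 CPM in the controls against 2.49 and 3.91 CPM in Pcgf1-KO, and its rows 2 to 7 held 193 and 173 reads in the controls against 15 and 15 in Pcgf1-KO. Its summed level did not pass the test (log2 fold change -1.07, SE 0.30, limma adjusted p = 0.125). It passed in 1 of 16 alternative settings. In LMPPs the rows did not follow the labels. Both libraries numbered 1 had reads there, 84 under the control label and 76 under the Pcgf1-KO label, whereas both libraries numbered 2 had 0. LMPP results are therefore given by label and, separately, for the pair of libraries without reads on rows 2 to 7 against the pair with them. That second split coincides with the replicate number in the labels, so it cannot be told apart from anything else that the number marks.

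The 10 genes differ in the kind of promoter they carry. Per the NCBIM37 (mm9) annotation, Nrarp is a single-exon gene at chr2:25036278-25038850 on the plus strand, Gata3 lies at chr2:9778705-9811661 on the minus strand with 6 exon rows, Notch1 at chr2:26313423-26372183 on the minus strand with 34 rows, and Il2ra at chr2:11564419-11614818 on the plus strand with 8 rows. Hes1 (chr16:30064470-30067882, plus), Dtx1 (chr5:121130211-121161936, minus), Tcf7 (chr11:52065873-52096681, minus), Bcl11b (chr12:109148613-109241812, minus), Cd3e (chr9:44806826-44817673, minus) and Ptcra (chr17:46893176-46900542, minus) complete the set. Exons of Notch1 share 1068 bases with the antisense gene 0610009E02Rik and 414 bases with Gm13568, and exons of Gata3 share 77 bases with 9230102O04Rik and 155 bases with Gm13256, which lies antisense. The kit did not mark strand, so reads in those stretches cannot be assigned to either gene.

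The 250 bases upstream of the start of Nrarp, Gata3, Notch1 and Il2ra are shown because Nrarp and Gata3 passed the test as higher in the LMPP libraries without reads on Pcgf1 rows 2 to 7, Notch1 is the receptor, and Il2ra was the gene of the highest level in IdHPCs with a promoter of another kind. The sequences are from RefSeq on GRCm38.p6, read in the direction of the gene with CpG dinucleotides in capitals, and each matched a single place in NCBIM37.
Nrarp: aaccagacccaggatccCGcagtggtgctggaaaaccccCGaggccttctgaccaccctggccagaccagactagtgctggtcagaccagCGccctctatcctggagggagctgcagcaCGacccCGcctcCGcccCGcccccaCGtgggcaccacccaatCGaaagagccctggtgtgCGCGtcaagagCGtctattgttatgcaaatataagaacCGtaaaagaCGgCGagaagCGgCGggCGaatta
Gata3: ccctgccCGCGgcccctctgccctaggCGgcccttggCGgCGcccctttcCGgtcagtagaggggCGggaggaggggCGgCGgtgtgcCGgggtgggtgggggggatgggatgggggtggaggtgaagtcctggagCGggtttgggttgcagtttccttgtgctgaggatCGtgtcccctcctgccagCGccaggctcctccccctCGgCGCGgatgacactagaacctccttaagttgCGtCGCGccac
Notch1: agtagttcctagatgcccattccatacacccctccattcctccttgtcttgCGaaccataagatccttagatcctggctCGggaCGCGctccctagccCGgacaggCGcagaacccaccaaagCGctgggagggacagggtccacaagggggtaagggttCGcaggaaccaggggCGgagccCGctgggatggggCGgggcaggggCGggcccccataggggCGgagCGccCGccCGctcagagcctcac
Il2ra: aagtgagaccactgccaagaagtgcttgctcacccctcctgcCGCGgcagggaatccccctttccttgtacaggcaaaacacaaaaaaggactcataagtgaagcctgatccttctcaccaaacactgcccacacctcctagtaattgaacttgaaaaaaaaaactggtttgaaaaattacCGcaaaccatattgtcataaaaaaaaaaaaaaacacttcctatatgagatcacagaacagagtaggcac
On NCBIM37 these stretches are chr2:25036028-25036277 for Nrarp (plus), chr2:9800228-9800477 for Gata3 (minus), chr2:26359343-26359592 for Notch1 (minus) and chr2:11564169-11564418 for Il2ra (plus). The Gata3 and Notch1 stretches lie inside the annotated gene spans and adjoin the start of another annotated transcript. The Nrarp stretch held 18 CpG and 61.2% G or C, that of Gata3 19 CpG and 70%, and that of Notch1 16 CpG and 66%. The Il2ra stretch held 3 CpG and 42.4% G or C. The median over all 32851 RefSeq windows of 250 bases was 6 CpG, and 21.7%, 19.7%, 25.4% and 71% of windows had as many CpG or more as Nrarp, Gata3, Notch1 and Il2ra. Of the other genes, Tcf7 held 37 and 15 CpG in its 2 windows, Dtx1 15, Bcl11b 9, Cd3e 7 and Ptcra 1. RefSeq windows were matched for 9 of the 10 genes, the exception being Hes1. The core letters of the RBPJ site, TGGGAA on either strand, were found in 2 of the 10 member windows, those of Cd3e and Ptcra, and in 21.6% of all windows. The E-box CAGCTG was found in the windows of Ptcra and Tcf7 and in 13% of all windows, and CAGGTG on either strand in 0 of the 10 and in 17.2%.

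The IdHPCs expressed Notch1, its 3 targets and Il2ra, but Bcl11b, Cd3e and Ptcra had few reads or none. Per kilobase of exon, Il2ra, the interleukin-2 receptor α chain (CD25), had the highest level with a mean of 37.4 CPM per kb over the 4 libraries (27.6 to 51.8). Notch1 followed with 11.3 CPM per kb (8.89 to 13.7), and its range stayed apart from those of the genes above and below it. Hes1, a repressor of the bHLH family, had 3.56 CPM per kb (1.95 to 5.22) and Nrarp, a feedback inhibitor of the Notch complex, had 3.51 (2.99 to 3.92), so the ranges of this pair overlapped. Dtx1, which encodes the Deltex ubiquitin ligase, was at 1.47 CPM per kb (0.738 to 2.77), Tcf7, which encodes TCF1, at 1.17 (0.658 to 1.499), Ptcra, the pre-T cell receptor α chain, at 0.535 (0.234 to 0.863) and Gata3 at 0.352 (0.216 to 0.520). From Dtx1 down to Gata3 each range overlapped that of the next gene. Bcl11b, the factor that seals T commitment, had 0, 1, 0 and 4 reads in control 1, control 2, Pcgf1-KO 1 and Pcgf1-KO 2, and Cd3e, a chain of the T cell receptor complex, had 0 reads in all 4, which allows up to 0.0860 to 0.141 CPM at 3 reads.

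In LMPPs Notch1 led the order and Il2ra was close to the floor. Notch1 had 13.2 CPM per kb (9.92 to 17.7), and no other member's range reached it. Nrarp at 3.14 CPM per kb (1.83 to 4.59), Tcf7 at 1.90 (1.30 to 2.44) and Gata3 at 1.52 (0.741 to 2.50) followed with ranges that overlapped from each gene to the next. Hes1 was at 0.415 CPM per kb (0.254 to 0.708), apart from both neighbours. Il2ra had 10, 0, 10 and 2 reads and Dtx1 had 7, 4, 12 and 4 reads in the libraries labelled control 1, control 2, Pcgf1-KO 1 and Pcgf1-KO 2. Bcl11b and Cd3e had 1 read in 1 library each, and Ptcra had 0 in all 4, which allows up to 0.173 to 0.227 CPM. The tables of IdHPCs and LMPPs were normalized separately, so no test was made between them.

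**Figure D1:**
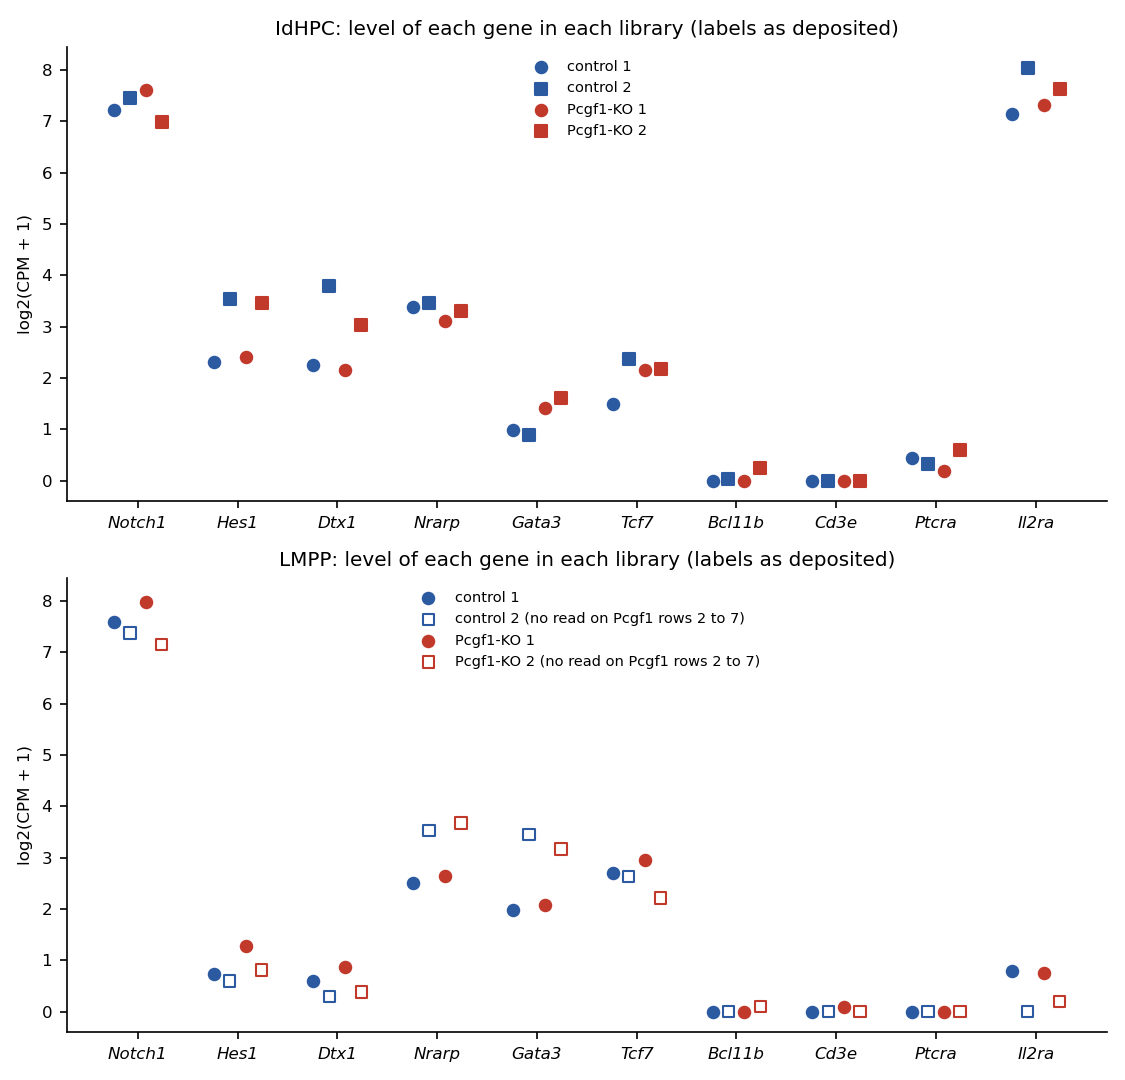
Level of each of the 10 genes as log2(CPM + 1) (vertical axis) in each of the 4 IdHPC libraries (top) and the 4 LMPP libraries (bottom), with 1 point per library, coloured by labelled genotype. Open squares mark the LMPP libraries with no read on Pcgf1 rows 2 to 7, and these lie above the other LMPP libraries for Nrarp and Gata3 and below them for Notch1.

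The IdHPC comparison asked how loss of Pcgf1 affects cultured progenitors. None of the 10 genes passed the test in this comparison. Each gene with at least 1 CPM in at least 1 of the 4 libraries was tested with limma on log2(CPM + 1), and p-values were adjusted over all genes tested by the Benjamini-Hochberg method, with 0.05 as the threshold. Of the members, 7 were tested (Bcl11b, Cd3e and Ptcra stayed under 1 CPM), and 0 passed, against 0.53% of all 12273 genes tested. At an unadjusted p under 0.05 the count of members was also 0 (9.17% of all genes tested were higher and 5.33% lower), and no member passed in any of the 16 alternative settings. The study describes its RNA-seq replicates as independent biological replicates, and the labels name no culture or animal for any library.

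Notch1 was at 148 and 175 CPM in the control IdHPCs and at 195 and 127 CPM in Pcgf1-KO, with the Pcgf1-KO libraries on either side of the controls. Its log2 fold change was -0.03 (SE 0.25, limma adjusted p = 0.963). Among the targets, Hes1 was at 3.98 and 10.6 CPM in controls and 4.35 and 10.1 CPM in Pcgf1-KO, and its log2 fold change was 0.02 (SE 0.44, adjusted p = 0.99). The spread of Hes1 lay between replicate numbers and not between genotypes. Dtx1 had the same kind of spread, with 3.77 and 12.9 CPM in controls and 3.44 and 7.25 CPM in Pcgf1-KO, and a log2 fold change of -0.43 (SE 0.48, adjusted p = 0.71). In both genotypes the library numbered 2 was the higher for Hes1 and Dtx1, and also for Il2ra. The summed level of 8 B lineage genes lay the same way, at 61.6 and 159 CPM in controls and 72.3 and 238 CPM in Pcgf1-KO, and its part in the spread of these targets was not tested. Nrarp was steadier, at 9.40 and 10.1 CPM in controls and 7.69 and 8.94 CPM in Pcgf1-KO. Its groups did not overlap, but the log2 fold change was only -0.21 (SE 0.27, adjusted p = 0.751).

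Gata3, which encodes a zinc finger factor needed for the earliest T cell progenitors, was the other gene whose IdHPC groups did not overlap. It was at 0.980 and 0.860 CPM in controls (32 and 30 reads) and at 1.69 and 2.07 CPM in Pcgf1-KO (48 and 44 reads). The means were 0.920 ± 0.0849 CPM (SD, n = 2) and 1.88 ± 0.272 CPM (SD, n = 2), a ratio of 2.04. Both Pcgf1-KO libraries were above both controls, but Gata3 reached the filter of 1 CPM only through the Pcgf1-KO libraries. Its values are therefore a description, and its test and its lack of overlap support no difference. The log2 fold change of log2(CPM + 1), which understates the change of low genes, was 0.58 (SE 0.30, 95% interval -0.08 to 1.24, limma adjusted p = 0.406). Of the 7 members tested, 1 was higher in Pcgf1-KO with no overlap, where 25.6% of all genes were, and 1 was lower, where 21.3% were. Tcf7 was at 1.84 and 4.18 CPM in controls and 3.48 and 3.53 CPM in Pcgf1-KO, inside the range of the controls (log2 fold change 0.23, SE 0.34, adjusted p = 0.788). Il2ra was at 140 and 264 CPM in controls and 159 and 198 CPM in Pcgf1-KO, also inside the range of the controls (log2 fold change -0.12, SE 0.29, adjusted p = 0.882). Ptcra was too low to test, with 12 and 9 reads in controls and 4 and 11 in Pcgf1-KO.

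The Pcgf1-KO 2 library of IdHPCs carried more of its reads at the 3′ ends of these genes. The row at the 3′ end of Notch1 held 57.5% of the gene's reads in that library against 32.4% and 34.2% in the controls and 32.9% in Pcgf1-KO 1. For Il2ra the share was 78.8% against 62.6% to 65.0% in the other 3 libraries, and for Tcf7 69.3% against 46.7% to 56.2%. Hes1 and Dtx1 did not show it, with 64.0% and 45.5% in Pcgf1-KO 2, each close to the share in at least 1 other library. Over all genes the 3′ rows held 29.1% of reads in Pcgf1-KO 2 and 23.9% to 25.6% in the other 3. With the 3′ row left out, the log2 fold changes were -0.35 for Notch1, -0.46 for Il2ra, 0.30 for Gata3 and -0.01 for Tcf7, and 0 members passed. Genes of the stromal feeder cells were also higher in Pcgf1-KO IdHPCs, with a summed level of 4467 and 3765 CPM in controls and 8877 and 6708 CPM in Pcgf1-KO over 20 listed genes, Lum and Dcn being at 0 in all 4. Of the 18 tested, 17 were higher in Pcgf1-KO with no overlap, where 25.6% of all genes were, and 2 passed (Col1a2 and Sparc). The call on Col1a2 held in 9 of 16 alternative settings and that on Sparc in 11 (adjusted p up to 0.576 and 0.463 with limma, edgeR or DESeq2). The part of the 3′ share and of stromal RNA in the values of the 10 genes was not tested. In bulk libraries fewer cells of a type and less RNA per cell cannot be told apart.

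**Figure D2:**
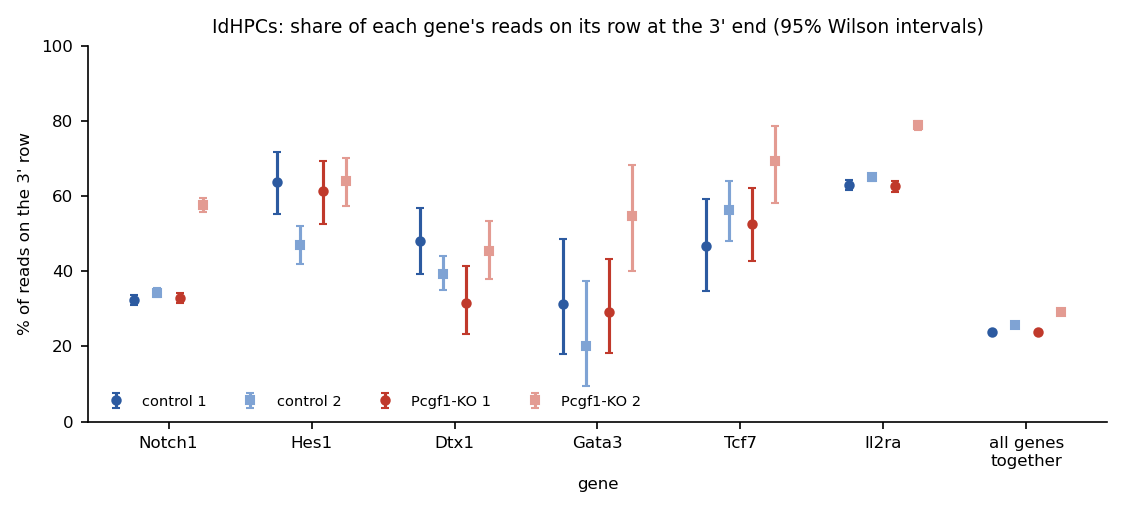
Percent of each gene's reads that lie on the row at its 3′ end (vertical axis) in the 4 IdHPC libraries, with 95% Wilson intervals that cover counting error only. For Notch1, Il2ra, Gata3 and Tcf7 the Pcgf1-KO 2 library has the highest share.

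By label, no member passed the test in LMPPs. Of the 10 genes, 5 reached 1 CPM in an LMPP library, and 0 of these 5 passed, as did 0.0% of the 12153 genes tested. With limma 2 of all genes, and 0 members, were at an unadjusted p under 0.05, and edgeR and DESeq2 on the recovered reads called 0 members. Hes1 levels were 0.664 and 0.518 CPM under the control label against 1.44 and 0.757 CPM under the Pcgf1-KO label, from 9 to 21 reads. Hes1 reached the filter only through a library labelled Pcgf1-KO, so its lack of overlap supports no difference (log2 fold change 0.38, SE 0.34, adjusted p = 1). It was the 1 member higher with no overlap, as were 5.92% of all genes tested, and 0 members were lower with no overlap (6.3% of all genes). For Notch1, Nrarp, Gata3 and Tcf7 the log2 fold changes were 0.08, 0.14, -0.09 and -0.09. For Notch1, Nrarp and Gata3 the pair of libraries within each label differed by more than the means of the labels.

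**Figure D3:**
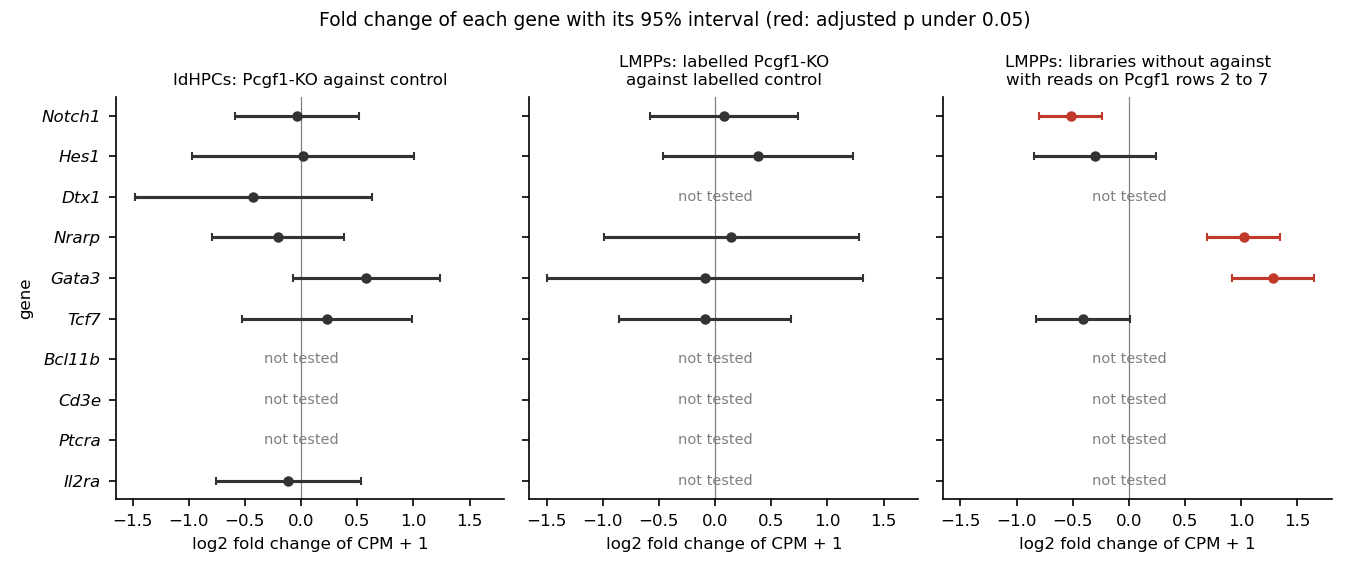
Log2 fold change of log2(CPM + 1) (horizontal axis) with its 95% limma interval for each tested gene in 3 comparisons, IdHPC Pcgf1-KO against control, LMPP by label, and LMPP libraries without against with reads on Pcgf1 rows 2 to 7. Red marks an adjusted p under 0.05, reached by Gata3, Nrarp and Notch1 in the third comparison alone.

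Split by reads on Pcgf1 rows 2 to 7, the LMPP libraries differed in Gata3, Nrarp and Notch1. Gata3 and Nrarp were higher in the libraries without those reads and Notch1 was lower, and the call on Notch1 was the weaker. Of the 5 members tested 2 were higher and 1 was lower at an adjusted p under 0.05. Over all genes tested 17.2% passed, 10.1% as higher and 7.08% as lower. The split uses the reads of Pcgf1 only, and the levels of the 10 genes had no part in it.

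Gata3 was at 2.95 and 3.23 CPM in the libraries with reads on the rows (labelled control 1 and Pcgf1-KO 1, 40 and 47 reads) and at 9.95 and 8.02 CPM in those without (labelled control 2 and Pcgf1-KO 2, 173 and 106 reads). The means were 3.09 ± 0.196 CPM (SD, n = 2) and 8.99 ± 1.36 CPM (SD, n = 2), a ratio of 2.91. The pairs stood well apart, and the log2 fold change was 1.28 (SE 0.16, 95% interval 0.92 to 1.65, limma adjusted p = 0.000623). By CPM all 6 exon rows of Gata3 were higher in both libraries without the reads. Row 6 rested on few reads, 0 and 2 with the reads against 7 and 2 without. Nrarp, the single-row gene, was at 4.72 and 5.28 CPM with (64 and 77 reads) and at 10.5 and 11.8 CPM without (183 and 156 reads). The means were 5.002 ± 0.400 CPM (SD, n = 2) and 11.2 ± 0.905 CPM (SD, n = 2), a ratio of 2.23, and the log2 fold change was 1.02 (SE 0.15, 95% interval 0.69 to 1.35, adjusted p = 0.00116). Gata3 and Nrarp kept their calls in all 16 alternative settings, with adjusted p up to 0.00696 and 0.0131.

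Notch1 was at 192 and 251 CPM in the libraries with reads on the rows and at 166 and 141 CPM in those without. The means were 222 ± 42.2 CPM (SD, n = 2) and 153 ± 17.3 CPM (SD, n = 2), 1.44 times as high with the reads as without. The pairs did not overlap, but the spread within the first pair was wide, and the log2 fold change was -0.52 (SE 0.13, 95% interval -0.80 to -0.24, adjusted p = 0.0192). Of its 34 exon rows, 17 were lower with no overlap and 0 were higher. The call was lost without the library labelled Pcgf1-KO 1 (-0.32, adjusted p = 0.0849), without the library labelled Pcgf1-KO 2 (-0.40, adjusted p = 0.114) without the 3′ row (-0.50, adjusted p = 0.0953) and with no trend of the spread over expression (adjusted p = 0.095). Receptor and feedback inhibitor thus had opposite signs in the same libraries.

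Hes1 and Tcf7 did not pass in this split. Hes1 was at 0.664 and 1.44 CPM with the reads and 0.518 and 0.757 CPM without, and the pairs overlapped (log2 fold change -0.30, SE 0.24, adjusted p = 0.456). It reached the filter only through a library with the reads. Tcf7 was at 5.53 and 6.79 CPM with and 5.24 and 3.63 CPM without, a non-overlapping but not significant difference (log2 fold change -0.41, SE 0.19, adjusted p = 0.184). Without overlap, 2 members were higher and 2 lower, while 26.7% of all genes tested were higher and 29.9% lower. Il2ra, with 10 and 10 reads against 0 and 2, and Dtx1, with 7 and 12 against 4 and 4, did not reach the filter. Pcgf1 itself, whose rows defined the split, was at 8.04 and 6.66 CPM with and at 1.15 and 1.82 CPM without.

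The rest of the Notch pathway and the T cell program was read from lists of 94 further genes. In IdHPCs, 1 of 78 tested passed, against 0.53% of all genes tested. Ccnd1, the cyclin D1 gene and a Notch target in several cell types, was at 14.2 and 10.5 CPM in controls and at 46.9 and 36.3 CPM in Pcgf1-KO. Its log2 fold change was 1.67 (SE 0.26, limma adjusted p = 0.0294), and the call was lost without the control 2 library (1.48, adjusted p = 0.219), without the 3′ row (1.24, adjusted p = 0.568) and with no filter on low genes (adjusted p = 0.188). The stromal genes given above were higher in the same libraries, and their part in the level of Ccnd1 was not tested. None of the 78 passed as lower (7 were lower and 5 higher at an unadjusted p under 0.05 with limma, as were 5.33% and 9.17% of all genes tested), and the median log2 fold change was -0.04. Of the T cell receptor, CD3 and signalling list 16 genes were tested and 0 passed. Thy1, a surface protein of T cells and early progenitors, was at 206 and 178 CPM in controls and 202 and 198 CPM in Pcgf1-KO. Lck, the kinase of the T cell receptor, was at 42.0 and 43.1 CPM in controls and 40.0 and 58.0 CPM in Pcgf1-KO. The classical targets Hes5, Hey1, Hey2 and Heyl had at most 8 reads in any IdHPC library. By label, 0 of 76 tested passed in LMPPs in either direction.

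In the LMPP split, 11 of the 76 genes tested were higher in the libraries without reads on Pcgf1 rows 2 to 7 and 10 were lower, where 10.1% and 7.08% of all genes tested were. Without Jag1 and Il2rb, which reached the filter only through the libraries in which they were higher, the counts were 10 and 9 of 74. Of all 21 called, 6 kept their calls in all 16 alternatives. Those 6 were Notch3, Jag2, Gfi1, Zfpm1, Dntt and Cd7. Among receptors, Notch3 rose to 5.81 and 6.13 CPM from 1.92 and 2.40 CPM with the reads (a log2 fold change of 1.15, adjusted p = 0.00143), and Notch2 did not pass. Among ligands, 2 of 3 tested were higher. Jag2 rose to 59.0 and 61.2 CPM from 24.6 and 29.1 CPM with the reads (a log2 fold change of 1.14, adjusted p = 0.000105), and Jag1, a low gene of 7 to 37 reads, had a log2 fold change of 0.87 (adjusted p = 0.0172), but it reached the filter only through the libraries in which it was higher, so its call is no support. Of 13 processing and glycosylation genes only Mfng, a Fringe glycosyltransferase, passed as higher (0.27, adjusted p = 0.0491). Of 11 genes of the transcription complex and its corepressors 0 passed, and 2 were higher at an unadjusted p under 0.05 with limma, as were 15.8% of all genes tested. Among 10 genes listed as inhibitors, ubiquitin ligases or turnover factors, Numbl (0.68), Dtx3 (0.42) and Mib2 (0.32) were higher and 0 lower. Not all genes of this list are inhibitors. Among 8 genes listed as other Notch targets or pathway genes, Tspan5 was higher (0.36), and Ccnd1 (-0.49) and Il7r (-1.19) were lower.

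Of 12 T lineage regulators tested beside Gata3 and Tcf7 in the same split, 3 were higher and 0 lower. Shares of 10.1% higher and 7.08% lower over all genes tested hold for each list here, and lists were not tested against each other. Zfpm1, which encodes the GATA cofactor FOG1, rose to 99.1 and 96.1 CPM from 43.3 and 49.1 CPM with the reads (a log2 fold change of 1.07, adjusted p = 6.8e-05). Gfi1, a zinc finger repressor used in lymphoid and myeloid progenitors, rose to 18.1 and 16.8 CPM from 8.85 and 10.8 CPM with the reads (a log2 fold change of 0.77, adjusted p = 0.00355), and Zbtb7b, the CD4 lineage factor ThPOK, had a log2 fold change of 0.64 (adjusted p = 0.00703). Of 14 genes of the T cell receptor, CD3 and signalling list, 0 were higher and 7 lower, with a median of -0.43 (all genes -0.02). Cd7, a surface protein of early lymphoid and NK cells, fell to 5.24 and 4.32 CPM from 17.0 and 15.1 CPM with the reads (a log2 fold change of -1.57, adjusted p = 0.00012). Dntt, the terminal transferase that adds bases at antigen receptor junctions and is also used by B progenitors, fell to 90.1 and 94.3 CPM from 180 and 160 CPM with the reads (a log2 fold change of -0.87, adjusted p = 0.000147). The other 5 were Lck (-0.59), Zap70 (-0.94), Cd5 (-0.87), Cd6 (-0.65) and Thy1 (-0.83), of which only Lck was above 5 CPM. The interleukin-2 receptor β chain gene Il2rb had a log2 fold change of -0.89 (adjusted p = 0.0112), but it too reached the filter only through the libraries in which it was higher.

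**Figure D4:**
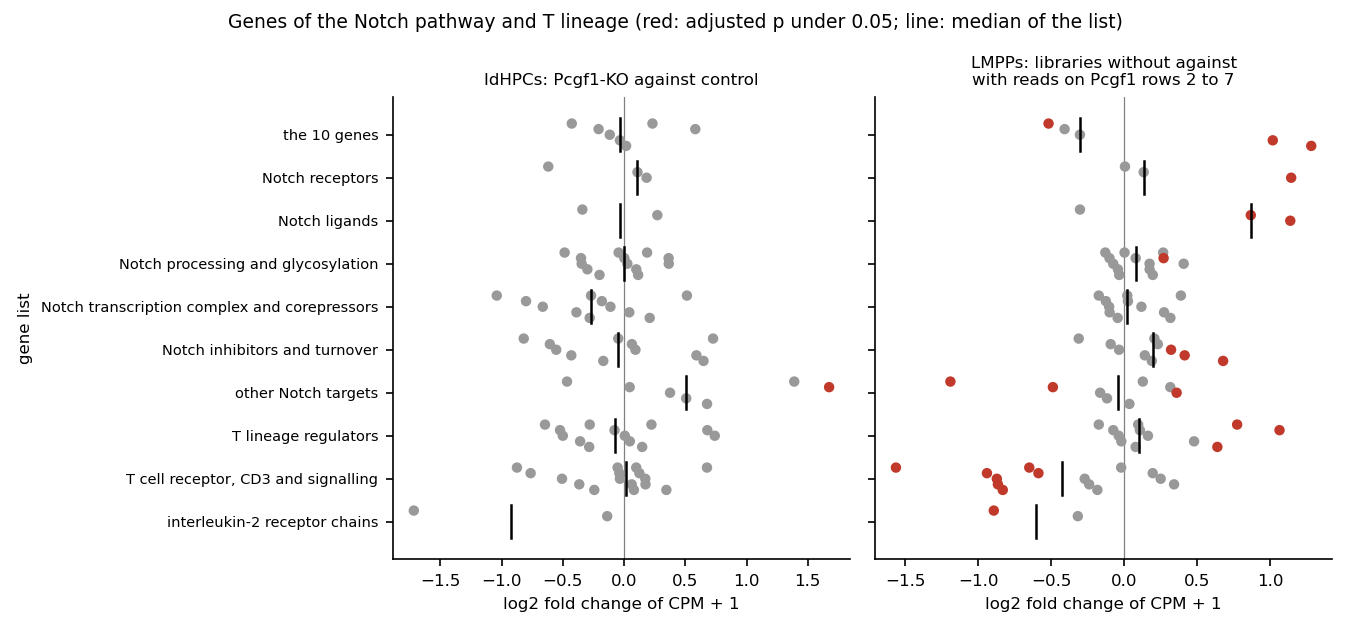
Log2 fold change (horizontal axis) of each tested gene, arranged by list (vertical axis). The lists are the 10 genes above and the Notch and T lineage lists. The comparisons are IdHPC Pcgf1-KO against control and the LMPP libraries without against with reads on Pcgf1 rows 2 to 7. Red points have an adjusted p under 0.05 and the short line is each list's median, which is -0.43 for the T cell receptor, CD3 and signalling list in the LMPP split.

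Markers of other cells moved with the LMPP split as well. The 15 mature T and NK genes summed to 43.3 and 45.7 CPM in the libraries with reads on the rows and to 34.3 and 34.5 CPM in those without, and 4 of 6 tested were lower, Cd5, Cd6, Zap70 and Klrd1. Cd3d had 1, 0, 1 and 3 reads and Cd3g 4, 0, 0 and 0 in the libraries labelled control 1, control 2, Pcgf1-KO 1 and Pcgf1-KO 2, and Cd8b1 and Ncr1 had 0 in all 4. Other T cell genes of the same list were well above the floor in all 4 libraries, with Cd247, the CD3 zeta chain, at 11.1 to 15.0 CPM and Lat, an adaptor of T cell receptor signalling, at 9.68 to 15.3 CPM. The 10 mature myeloid genes summed to 2750 and 2722 CPM with and to 2341 and 2405 CPM without, and 5 of 9 were lower (Prtn3, Lyz2, Itgam, Csf1r and Cd68). The 6 mast and basophil genes summed to 50.4 and 44.1 CPM with and to 36.7 and 44.0 CPM without, and 0 of 3 tested passed. Of 8 erythroid genes Tfrc, the transferrin receptor of proliferating cells in general, made up nearly all of the summed level, at 309 and 316 CPM with and 230 and 220 CPM without. Gata1 was at 1.70 and 2.13 CPM with and 1.84 and 1.51 CPM without, and Epor, which reached the filter only through the libraries in which it was higher, was called higher and Tfrc lower of 4 tested. Of the progenitor genes themselves Kit was higher without the reads, from 228 and 258 CPM to 384 and 352 CPM, and Ly6a and Il7r were lower. The stromal genes, prominent in IdHPCs, summed to 67.2 to 102 CPM in LMPPs, and 1 of 6 tested (Pdgfrb) was higher. The part of these cells in the levels of Gata3, Nrarp and Notch1 was not tested.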

How the data were processed

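RNA was poly(A) selected, made into libraries with the NEBNext Ultra kit and sequenced on a HiSeq, per the labels and the methods of the study. The methods give HISAT2, mm9, Rsubread and edgeR, and the submitters' processing notes name TopHat2 2.0.13, edgeR and mm9. The CPM values were computed and deposited by the authors in 1 table per kind of cell, over 284716 exon rows of 23284 symbols. Every CPM value was a whole multiple of the value of 1 read (100% of values, within 0.01 of a read), so whole reads were recovered.

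The 106425 rows equal to the row before them in both tables were dropped, a rule completed after the tables were seen (such repeats held 26.0% to 27.7% of reads), and the rest were summed per symbol. Genes with a CPM of at least 1 in at least 1 of 4 libraries were tested on log2(CPM + 1), a pseudocount of 1, with limma 3.58.1 (R 4.3.3), a trended moderated test and Benjamini-Hochberg adjustment at 0.05. The design had foreseen gene rows. Samples were grouped by label, and the LMPP split by a script from reads on Pcgf1 rows 2 to 7. Wilson intervals and the floor of 3 reads (0.0860 to 0.227 CPM) cover counting error only. The named genes were the 10 members, Pcgf1, every list gene past the threshold in any comparison and otherwise the 2 highest of a list, which are not reported here for the transcription complex. Hes5, Hey1, Hey2, Heyl, Notch2, Cd3d, Cd3g, Cd8b1, Ncr1, Cd247, Lat, Gata1, Maml3, Id1 and the markers Flt3, Cd34, Lum and Dcn were named outside this rule, after their values were seen. The members, lists and tests were chosen with earlier results of these data known. The pathway list gene Spi1 was not matched by symbol and is not analysed here. Alternatives were other pseudocounts, filters and scalings, no trend, a replicate block, edgeR 4.0.16 and DESeq2 1.42.0 on the recovered reads, all listed rows, no 3′ row, another rule for repeated rows and each library left out. The fits were tested on simulated data. Promoters are from RefSeq on GRCm38.p6.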

Additional observations from a re-analysis of the deposited data

Results flagged for a closer look

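Among the 10 genes and the genes of the Notch and T lineage lists, those that passed limma's adjusted threshold in IdHPCs or in the LMPP split and were tested in both were compared, 24 genes in all. For 5 of them the groups did not overlap in IdHPCs and did not overlap, in the opposite direction, in the LMPP split by reads on Pcgf1 rows 2 to 7. Over all genes tested, 25.6% were higher and 21.3% lower with no overlap in IdHPCs, and 26.7% and 29.9% in the split. The compared genes were chosen by their calls, so their lack of overlap is no separate support. The share of all genes that lay in opposite directions in this way was not counted. The difference between the 2 effects was not tested for any of them, and the second split is not the labelled contrast. The log2 fold changes were -0.21 in IdHPCs and 1.02 in LMPPs for Nrarp, -0.34 and 1.14 for Jag2, -0.43 and 0.32 for Mib2, 1.67 and -0.49 for Ccnd1, and 0.35 and -1.57 for Cd7. Of the IdHPC values only that of Ccnd1 passed limma's adjusted threshold, and all 5 LMPP values did.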

How the results depend on the processing

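Gata3 in IdHPCs and Hes1 in LMPPs rested on 9 to 48 reads per library, and the part of depth in their results was not tested. No member passed in IdHPCs or by LMPP label under any alternative. For IdHPCs the genes called, 33 higher and 32 lower, became 0 and 0 with no filter, 484 and 185 with the replicate block, 466 and 163 by edgeR's exactTest, 341 and 153 by DESeq2, and 0 and 3 without the 3′ row. Higher calls were 77 by edgeR's quasi-likelihood test and 19 over all listed rows. Leaving out 1 library gave 0 to 234 higher and 14 to 591 lower, with 0 and 14 without control 2 and 234 and 591 without Pcgf1-KO 1. Hes1 turned in sign with median ratio scaling (-0.0092), edgeR's quasi-likelihood test (-0.0022), DESeq2 (-0.028) and without the 3′ row (-0.19), and Tcf7 without the 3′ row (-0.012). Leaving out 1 IdHPC library gave -0.60 to 0.63 for Hes1, -1.20 to 0.34 for Dtx1, -0.57 to 0.34 for Il2ra, -0.34 to 0.28 for Notch1 and -0.20 to 0.67 for Tcf7. By LMPP label, the replicate block called 3 genes higher, none of them a member, and Pcgf1 turned to -0.093 by the quasi-likelihood test, -0.11 by exactTest and -0.11 by DESeq2. Leaving out 1 LMPP library gave -0.83 to 0.64 for Gata3, -0.33 to 0.49 for Notch1, -0.37 to 0.66 for Nrarp, -0.46 to 0.29 for Tcf7 and -0.96 to 1.11 for Pcgf1. In the split, 1229 higher and 860 lower became 757 and 418 without the 3′ row, 547 lower by DESeq2, and 747 to 1211 higher and 544 to 736 lower on leaving out 1 library (747 and 544 without the library labelled control 2). There, Il2ra passed only with no filter. The cause of these changes was not tested. Pathway calls in the split, 11 higher and 10 lower, became 5 and 4 without the 3′ row. Same-numbered libraries deviated together (correlation 0.147 across genes in IdHPCs, 0.705 in LMPPs), but with 2 pairs the numbers are not established as pairs. In the split the number cannot serve as a block.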

Other observations

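Il2rb, Maml3 and Id1, pathway genes chosen after their values were seen, had IdHPC groups that did not overlap but missed limma's adjusted threshold. Lack of overlap was common. Of the 78 pathway genes tested 16 were higher and 18 lower with no overlap, as were 25.6% and 21.3% of all genes tested. The part of the 3′ share and of stromal RNA in the values of these genes was not tested. Il2rb, the interleukin-2 receptor β chain gene, was at 19.0 and 14.8 CPM in controls and 7.76 and 2.35 CPM in Pcgf1-KO (log2 fold change -1.72, SE 0.41, adjusted p = 0.0871). Maml3, a Mastermind coactivator gene, was at 91.4 and 113 CPM in controls and 59.4 and 40.1 CPM in Pcgf1-KO (-1.04, SE 0.25, adjusted p = 0.0916). Id1, an inhibitor of E proteins like the transduced Id3, was at 1.47 and 1.38 CPM in controls and 4.18 and 6.78 CPM in Pcgf1-KO (1.39, SE 0.31, adjusted p = 0.0778).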
